A study of Mus musculus with 283 samples.

Results

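Untreated tumours of 2 related mouse mammary cancer models, T11-Apobec and T11, were compared at 7 days, with 4 tumours of each model out of the 283 samples of the series. The members are all tumour libraries whose sample labels give the model T11-Apobec or T11, the time 7 day and no therapy, a rule that uses no measured value. Both models were transplanted orthotopically into syngeneic hosts, and mice were assigned to study arms when tumours were 5 mm across, per the labels' protocols. T11 is a mouse mammary tumour line, and the exome label of T11-Apobec gives the strain BalbC. T11-Apobec is named after T11, and its source names at 7 days read T11-Apobec3, while a cultured line is named T11_EF1A_APOBEC_CELL_LINE. Neither arm received anti-PD1 or anti-CTLA4 antibody. The labels class T11-Apobec as sensitive and T11 as resistant to that therapy. T11-Apobec tumours at day 3 and end stage carry T11-A3 and T11Apobec in their source names, and whether all 3 names stand for the same cells is not given. Each model is 1 line, so an effect of the Apobec change and any other difference between the 2 lines cannot be told apart.

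APOBEC enzymes deaminate cytosine in nucleic acids and can leave mutations in the genome of a cell that expresses them. Mutated peptides shown on MHC class I can be recognised by CD8 T cells, which then release interferon gamma, granzymes and perforin. Interferon gamma signals through JAK kinases and raises the transcription of chemokines, guanylate-binding proteins, immunoproteasome subunits and both classes of MHC. In breast tumours these genes are widely used as a readout of T cell activity. PD-L1, the product of Cd274, belongs to the same response and restrains the T cells that provoke it.

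The 8 libraries held an estimated 49.12 M to 65.03 M reads and 21395 to 22590 genes above 0. Pearson's r across tested genes was 0.987 to 0.993 within T11-Apobec, 0.978 to 0.992 within T11 and 0.959 to 0.971 between them. On the log2 scale, 25 genes high in day 3 T11 tumours against the unrelated KPB25L model averaged 9.64 to 9.90 in T11-Apobec tumours, 9.96 to 10.18 in T11 tumours and 1.40 to 1.89 in KPB25L tumours. All 8 libraries were read on 1 flow cell, with T11-Apobec in lane 6 and T11 in lane 8 according to the file headers, so lane and model cannot be told apart. The labels do not say whether tumours of a group came from separate injections of cells. These are bulk tumours, in which fewer cells of a type and less RNA per cell cannot be told apart.

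At day 7, 2566 of 18326 genes differed between untreated T11-Apobec and T11 tumours, which is 14% of those tested. A gene is called here when its adjusted p is under 0.05 in limma with Benjamini-Hochberg adjustment over all genes tested. Of these, 894 genes were higher in T11-Apobec (4.88%) and 1672 were lower (9.12%). Called or not, the groups of 4 did not overlap in 16.3% of tested genes in the higher direction and 20.6% in the lower. Values are log2 of the deposited signal plus 1, a difference is T11-Apobec minus T11 on that scale, and low genes are understated by it. The median difference over all genes was -0.03. The genes called higher had a median difference of 1.13 and the genes called lower fell by a median of 1.00 relative to T11. Under a median-of-ratios rescaling of the libraries the split was 1173 higher and 1518 lower. Differences above 4 log2 units were reached by 38 of the higher genes, and 22 of the lower genes fell that far below T11.

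Apobec3, the mouse cytidine deaminase named by the source labels (chr15:79891659-79915906 in GRCm38), did not separate the models at day 7. Its log2 levels were 11.62, 11.45, 11.33 and 11.54 in T11-Apobec tumours, against 11.38, 11.11, 11.33 and 11.34 in T11 tumours. The groups overlapped, and the difference of 0.19 ± 0.20 (SE) was not called (adjusted p = 0.652, limma). At day 3, in other tumours, Apobec3 was 0.96 log2 units higher in T11-Apobec (adjusted p = 4.1e-04). In the cultured lines, with 1 library each, its log2 level was 11.85 in T11_EF1A_APOBEC_CELL_LINE, against 9.54 in T11_V5_CELL_LINE and 8.99 in T-11-CellLine-VALIDATION. The gap between the cultured libraries was thus not present between the day 7 tumours, in which host cells can also express the gene. Apobec1, the deaminase that edits apolipoprotein B mRNA, was higher at day 7 by 1.13 ± 0.24 (adjusted p = 5.5e-04). In culture Apobec1 ran the other way, at 7.22 in T11_EF1A_APOBEC_CELL_LINE, against 9.29 in T11_V5_CELL_LINE and 9.55 in T-11-CellLine-VALIDATION. Of the 12 tested genes of the Apobec family and uracil repair, 2 were higher and 1 lower. Samhd1, which degrades dNTPs, was the other higher one, with a difference of 1.39, and the lower one was Polb, the polymerase of base excision repair, with a difference of -0.66.

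T cell and cytotoxic genes were among the clearest differences. Of 16 tested T cell genes 15 were higher in T11-Apobec and none was lower, with a median difference of 2.37, and of 14 genes of CD8 cells and cytotoxicity 13 were higher and none lower, with a median of 3.53. Cd8a, a chain of the CD8 co-receptor, had log2 levels of 9.25, 8.26, 8.71 and 8.11 in T11-Apobec tumours, against 4.45, 2.66, 5.35 and 3.51 in T11 tumours. All 4 T11-Apobec tumours stood above all 4 T11 tumours, by 4.59 ± 0.83 (SE) on average (adjusted p = 3.5e-05). Gzmb, encoding granzyme B, stood at 9.70, 9.15, 8.78 and 9.31 in T11-Apobec tumours, against 5.31, 4.35, 4.54 and 5.12 in T11 tumours. The granzyme B groups were apart by 4.41 ± 0.74 (adjusted p = 1.1e-05). Prf1, encoding perforin, the pore through which granzymes enter a target, differed by 4.63 ± 0.68 (adjusted p = 7.2e-07). Ifng itself was at 6.52, 6.26, 5.61 and 5.98 in T11-Apobec tumours, against 1.35, 0.00, 1.76 and 0.00 in T11 tumours. It was listed at 0 in 2 of the 4 T11 libraries and well above 0 in every T11-Apobec library, with a difference of 5.31 ± 1.00 (adjusted p = 7.3e-05). The T cell receptor chain gene Trbc2 was the exception in its list, with a difference of -0.20 (adjusted p = 0.823), while Cd3e, part of the receptor's signalling complex, was higher by 3.54 (adjusted p = 3.4e-04).

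Natural killer genes moved in the same direction. All 7 tested genes of the NK list, which shares Eomes with the cytotoxicity list, were higher, with a median difference of 3.31, and 2 further members of the 9 were too low to be tested. Klrk1, encoding the activating receptor NKG2D of NK cells and CD8 T cells, was at 9.98, 9.37, 9.29 and 9.42 in T11-Apobec tumours, against 5.72, 5.47, 5.87 and 5.47 in T11 tumours. Its groups were 3.88 ± 0.65 apart (adjusted p = 1.1e-05). Klrd1, encoding CD94, was higher by 3.46 ± 0.54 (adjusted p = 2.6e-06).

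**Figure D1:**
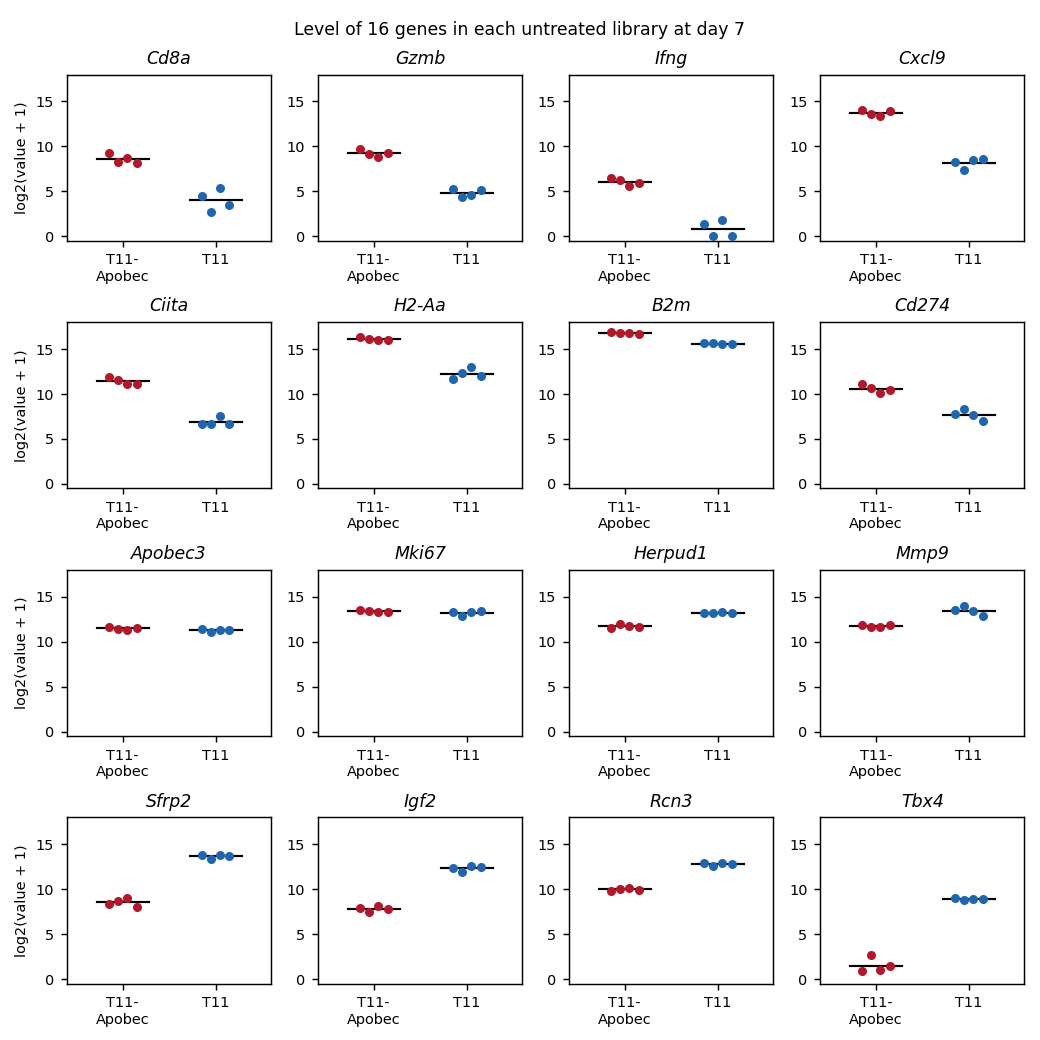
Each panel shows 1 gene as log2(value + 1) in the 4 untreated T11-Apobec and 4 untreated T11 tumours at day 7, with points for libraries and bars for group means. Cd8a, Gzmb, Ifng, Cxcl9, Ciita, H2-Aa, B2m and Cd274 were higher in every T11-Apobec tumour, Herpud1, Mmp9, Sfrp2, Igf2, Rcn3 and Tbx4 were lower in every one, and Apobec3 and Mki67 overlapped.

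The interferon gamma response was higher across its targets and not at its receptor. Of 26 tested members 20 were higher and none lower, with a median difference of 2.92. The receptor chains Ifngr1 and Ifngr2 and the kinases Jak1 and Jak2 had differences of -0.26, -0.33, -0.33 and 0.06, none of which was called. Cxcl9, a chemokine that attracts activated T cells, was at 14.09, 13.59, 13.40 and 13.93 in T11-Apobec tumours, against 8.30, 7.41, 8.45 and 8.60 in T11 tumours. Its difference of 5.56 ± 0.79 (adjusted p = 3.5e-07) was 47.3-fold on the log2(value + 1) scale. Interferon-inducible GTPases, which act in cell-autonomous defence against intracellular pathogens, had the greatest positive differences among the named genes. Iigp1 differed by 5.70 ± 0.71 (adjusted p = 1.4e-08) and Tgtp1 by 6.35 ± 0.79 (adjusted p = 1.3e-08). Gbp4, Gbp6, Tgtp2 and Gbp2b were higher by 4.79, 4.58, 4.34 and 3.95. Members of these families are near-identical in sequence, so how reads were divided between Tgtp1 and Tgtp2, or among the Gbp genes, is uncertain.

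Promoters are shown for 4 called genes of the interferon gamma and MHC lists that had a single promoter entry with a motif match. Among the list members considered, these had the smallest adjusted p. Jak2 is also shown, as the interferon gamma list member considered that had an entry and the smallest difference. Some list members were not considered because of the chromosome they lie on, so a gene left out can have a smaller adjusted p. Each run covers 250 bases before to 50 bases after the gene's start, from RefSeq on GRCm38.p6, and all 5 genes lie on the plus strand. Capitals mark matches on either strand to TTCNNNGAA, the gamma-activated site, or to GAAA and GAAA with 2 free bases between, the interferon-stimulated response element, and a match on the minus strand reads TTTC and TTTC.
Erap1, chr13:74639603-74639902: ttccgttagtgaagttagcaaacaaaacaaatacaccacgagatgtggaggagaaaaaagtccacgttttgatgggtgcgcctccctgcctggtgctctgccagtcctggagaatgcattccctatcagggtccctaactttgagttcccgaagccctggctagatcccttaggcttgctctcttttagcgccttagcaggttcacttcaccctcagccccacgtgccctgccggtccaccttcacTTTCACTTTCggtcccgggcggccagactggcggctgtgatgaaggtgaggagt
Gbp2, chr3:142620413-142620712: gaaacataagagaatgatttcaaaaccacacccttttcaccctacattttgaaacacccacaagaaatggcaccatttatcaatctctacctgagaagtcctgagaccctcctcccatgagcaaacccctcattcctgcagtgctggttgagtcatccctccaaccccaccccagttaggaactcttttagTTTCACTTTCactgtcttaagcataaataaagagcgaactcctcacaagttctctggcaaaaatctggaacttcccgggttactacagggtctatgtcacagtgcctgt
Gbp7, chr3:142530086-142530385: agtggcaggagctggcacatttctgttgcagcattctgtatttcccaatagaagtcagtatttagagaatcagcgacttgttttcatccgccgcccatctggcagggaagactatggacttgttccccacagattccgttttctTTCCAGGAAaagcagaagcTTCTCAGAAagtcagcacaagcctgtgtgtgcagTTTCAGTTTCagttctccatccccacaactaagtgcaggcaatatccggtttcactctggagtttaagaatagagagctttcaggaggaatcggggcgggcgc
Irgm2, chr11:58214727-58215026: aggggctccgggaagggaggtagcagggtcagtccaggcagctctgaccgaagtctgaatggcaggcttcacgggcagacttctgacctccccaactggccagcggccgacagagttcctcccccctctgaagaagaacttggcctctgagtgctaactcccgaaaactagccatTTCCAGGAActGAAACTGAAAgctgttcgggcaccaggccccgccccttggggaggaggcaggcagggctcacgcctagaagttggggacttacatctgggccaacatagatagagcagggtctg
Jak2, chr19:29251553-29251852: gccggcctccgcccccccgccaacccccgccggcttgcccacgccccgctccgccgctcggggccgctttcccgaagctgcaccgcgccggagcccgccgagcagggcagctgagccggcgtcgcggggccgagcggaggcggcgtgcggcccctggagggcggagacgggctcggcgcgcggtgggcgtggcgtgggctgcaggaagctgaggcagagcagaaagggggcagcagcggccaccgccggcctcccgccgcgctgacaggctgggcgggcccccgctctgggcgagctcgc

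Gbp7 held 2 matches to the gamma-activated site and 1 to the response element, Irgm2 held 1 of each side by side, and Erap1 and Gbp2 held 1 response element each. At day 7 the 4 genes were higher by 1.29 for Erap1, which trims peptides for MHC class I, 3.42 for Gbp2, 2.95 for Gbp7 and 3.34 for Irgm2, an immunity-related GTPase. Across all 27025 promoters of that length the gamma-activated site occurred in 9.55% and the response element in 3.99%. For the 12075 tested genes with a promoter the shares were 8.39% and 3.83%. Among genes called higher with a promoter in the table, 12.6% and 9.98% of 651 held them, and among genes called lower, 7.21% and 2.46% of 1179 did. Among 20 members of the interferon gamma list 6 and 9 held them. The type I interferon list held the response element in 58.8% of 17 promoters, although only 4 of its 24 tested genes were higher at day 7. A match describes these letters in this window and not binding.

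Antigen presentation was higher for both MHC classes. The class I list shares Tap1, Psmb8 and Psmb9 with the interferon gamma list, and the class II list shares Ciita with it. All 12 genes of the class II list were higher in T11-Apobec, with a median difference of 3.58, and 15 of 17 class I genes were higher and none lower, with a median of 2.05. H2-Aa, the alpha chain of I-A, was at 16.36, 16.18, 16.03 and 15.97 in T11-Apobec tumours, against 11.68, 12.34, 12.99 and 12.04 in T11 tumours. It differed by 3.87 ± 0.66 (adjusted p = 1.5e-05) with no overlap. Ciita, the class II transactivator, stood at 11.94, 11.51, 11.17 and 11.07 in T11-Apobec tumours, against 6.72, 6.64, 7.60 and 6.66 in T11 tumours. It was higher by 4.52 ± 0.72 (adjusted p = 3.9e-06). Its class I counterpart Nlrc5 was higher by 2.84 ± 0.43 (adjusted p = 1.1e-06). Tap1, a subunit of the peptide transporter, was higher by 3.03 ± 0.44 (adjusted p = 5.6e-07). B2m, the light chain of class I, had a smaller difference of 1.16 ± 0.26 (adjusted p = 7.5e-04) and H2-K1 one of 1.91 ± 0.37 (adjusted p = 1.1e-04). Reads of the classical and Q-region class I genes may be shared among them.

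Type I interferon genes differed far less. Of 24 members only 4 were called higher, namely Ifih1, Stat2, Zbp1 and Rtp4, with a list median of 0.33. Zbp1, a nucleic acid sensor, had the greatest difference of these, 2.06 ± 0.52 (adjusted p = 0.00343). Isg15, Ifit1 and Mx1, antiviral genes with strong response to type I interferon, had differences of 0.21, 0.33 and 0.33, with adjusted p of 0.861, 0.783 and 0.789. The call count of this list dropped to 1 in the lowest of the fits that left out 1 library. Of 18 tested chemokines 4 were higher and 2 lower, with a median difference of -0.18, and 1 of the lower genes lies on chromosome 8. Ccl8, a ligand made by macrophages, was higher by 3.56 ± 0.62 (adjusted p = 2.0e-05). Cxcl1 and Cxcl2, which attract neutrophils, had differences of -1.46 and -2.18 that were not called.

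Other immune lists showed which cell markers went with the T cell genes. Of 13 tested genes of CD4 helper and regulatory cells 6 were higher and 1 was lower. Cd4 had a difference of 1.01 ± 0.47 (adjusted p = 0.164) although its groups did not overlap, and Foxp3, the regulatory T cell factor, one of 0.52 ± 0.38 (adjusted p = 0.442). Tbx21, encoding T-bet of Th1 and cytotoxic cells, was higher by 3.25 ± 0.64 (adjusted p = 1.4e-04). Gata3, the factor of Th2 cells that luminal breast cells also express, was at 6.69, 6.12, 5.94 and 5.84 in T11-Apobec tumours, against 8.95, 8.82, 9.16 and 9.21 in T11 tumours. It was lower by a difference of -2.89 ± 0.32 (adjusted p = 5.9e-10) and stood apart from the rest of its list.

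Checkpoint genes included 6 higher and 1 lower of 15 tested, in a list that shares Cd274 with the interferon gamma list. Cd274, encoding PD-L1, was at 11.12, 10.66, 10.13 and 10.49 in T11-Apobec tumours, against 7.73, 8.36, 7.71 and 7.04 in T11 tumours. Both ligands of PD-1 were higher, Cd274 by 2.89 ± 0.55 (adjusted p = 8.0e-05) and Pdcd1lg2 by 5.01 ± 0.96 (adjusted p = 9.4e-05). The receptors Pdcd1 and Ctla4 were higher by 3.47 ± 0.67 (adjusted p = 1.1e-04) and 2.00 ± 0.59 (adjusted p = 0.0137). The lower member was Vtcn1, encoding the inhibitory B7-H4, with a difference of -2.88 (adjusted p = 9.7e-05).

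Dendritic cells that cross-present antigen to CD8 T cells are marked by Xcr1 and Clec9a. Xcr1 was higher by 3.14 ± 0.61 (adjusted p = 1.2e-04) and Clec9a by 2.15 ± 0.49 (adjusted p = 0.00106), and 6 of 13 conventional dendritic cell genes were higher with none lower. Of 13 macrophage genes 3 were higher, and Csf1r and Adgre1 had differences of 0.00 and 0.35 that were not called. The macrophage calls were the least stable of these, with 0 to 2 left when 1 library was left out. Fcrls, a receptor-like gene of tissue macrophages, went the other way, at 9.30, 9.30, 9.61 and 10.20 in T11-Apobec tumours, against 13.12, 12.99, 12.90 and 13.55 in T11 tumours. It was lower by a difference of -3.54 ± 0.73 (adjusted p = 2.6e-04), whereas the activating receptor Fcgr4 was higher by 2.58 ± 0.43 (adjusted p = 1.0e-05). In the complement list 5 of 14 genes were higher and none lower, including the protease C1ra, with a difference of 1.52 ± 0.32 (adjusted p = 3.1e-04).

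B lineage genes did not follow the T cell genes. Of 15 B cell genes 1 was higher and none lower, with a median difference of -0.75. Cd22, an inhibitory receptor of B cells, averaged 8.19 ± 0.12 in T11-Apobec and 6.69 ± 0.10 in T11 (SD, n = 4 each), and was called higher (adjusted p = 0.0056). In the plasma cell list the 2 lower genes were Xbp1 and Derl3, of the secretory pathway, and none of the immunoglobulin genes was called. At day 3 the plasma cell list had 4 higher genes and a median of 2.48, against a day 7 median of -0.28.

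Neutrophil and acute-phase genes were lower, 6 of 13 with none higher and a median difference of -1.74. Mmp9, a gelatinase, stood at 11.81, 11.64, 11.61 and 11.86 in T11-Apobec tumours, against 13.48, 14.02, 13.46 and 12.91 in T11 tumours, with a difference of -1.74 ± 0.35 (adjusted p = 2.2e-04). S100a9, a subunit of calprotectin, had a difference of -2.95 ± 0.86 (adjusted p = 0.0131), with means of 6.16 in T11-Apobec and 9.11 in T11. Its groups overlapped, at 4.49 to 8.50 in T11-Apobec and 8.05 to 10.89 in T11. Cxcr2, the chemokine receptor of neutrophils, also had overlapping groups and a difference of -2.50 ± 0.70 (adjusted p = 0.00899). Between 1 and 7 of these genes were called when a library was left out, so the count depended on single tumours.

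**Figure D2:**
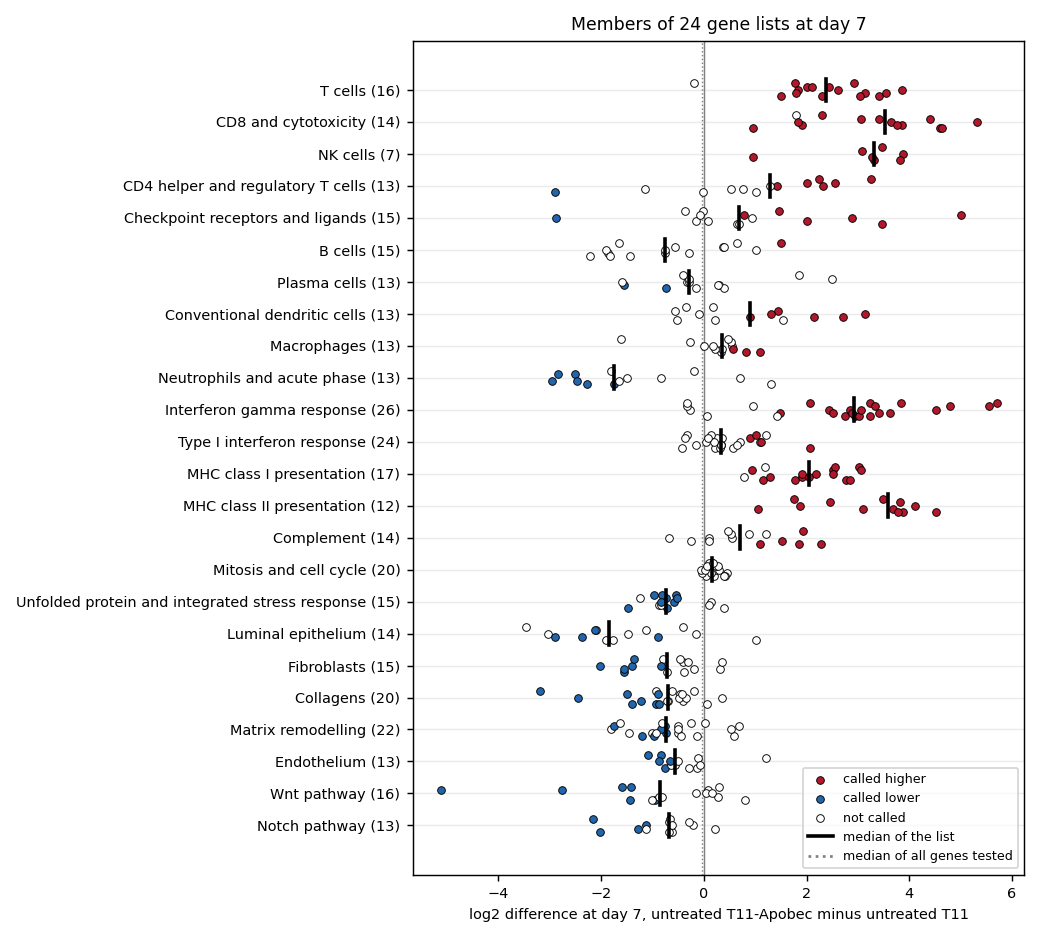
Each point is 1 gene, placed by its log2 difference at day 7 (untreated T11-Apobec minus untreated T11), for 24 gene lists with the number of tested genes in brackets. Red points were called higher, blue points were called lower, white points were not called, black bars are list medians, and the dotted line is the median of all genes tested, -0.03. The interferon gamma and MHC lists lie to the right with medians of 2.05 to 3.58, and the neutrophil, luminal and matrix lists lie to the left.

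The genes lower in T11-Apobec held several secreted signalling proteins. Sfrp2, a secreted modulator of Wnt signalling, was at 8.34, 8.74, 9.09 and 8.04 in T11-Apobec tumours, against 13.84, 13.34, 13.81 and 13.71 in T11 tumours. Its difference of -5.12 ± 0.60 (adjusted p = 3.0e-09) was 34.9-fold on the log2(value + 1) scale. Igf2, an insulin-like growth factor, was at 7.97, 7.44, 8.16 and 7.81 in T11-Apobec tumours, against 12.43, 11.92, 12.60 and 12.50 in T11 tumours, with a difference of -4.52 ± 0.50 (adjusted p = 4.4e-10). In both genes every T11-Apobec tumour lay more than 3 log2 units below every T11 tumour. Ltbp2, a matrix protein related to fibrillins, had a difference of -3.60 ± 0.44 (adjusted p = 9.7e-09). Wnt5a, a non-canonical Wnt ligand, had one of -2.77 ± 0.28 (adjusted p = 4.7e-11). Of 16 tested Wnt pathway genes 6 were lower and none higher, with a median of -0.85, and these included the ligand Wnt5b, the secreted inhibitors Dkk2 and Dkk3 and the target Axin2. The Wnt count was 3 to 6 when 1 library was left out. Grem1, a secreted BMP antagonist, had a difference of -2.96 ± 0.65 (adjusted p = 6.7e-04).

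Tbx4, a T-box factor of limb and lung mesenchyme, had the greatest negative difference of all called genes and was named after its values were seen, since its mean is too low for the rule that picked the others. It was at 0.87, 2.69, 0.98 and 1.52 in T11-Apobec tumours, against 9.01, 8.76, 8.96 and 8.94 in T11 tumours. The difference was -7.40 ± 0.53 (adjusted p = 2.2e-16). In T11-UV, another model named after T11, the untreated day 7 mean was 8.58 ± 0.88 (SD, n = 4). All 24 T11-Apobec tumours of the series, treated or not and at any time, were at or below 4.03, and no T11 or T11-UV tumour was below 6.32.

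Matrix and stromal genes were lower in part. Collagens included 8 lower and none higher of 20, with a median of -0.70, fibroblast genes 6 lower of 15 and endothelial genes 5 lower of 13. Col1a1, the major fibrillar collagen, had means of 15.76 ± 0.22 in T11-Apobec and 17.17 ± 0.33 in T11 (SD, n = 4 each), a difference of -1.40 (adjusted p = 0.00222). Col11a1, a minor fibrillar collagen, had a difference of -3.18 ± 0.64 (adjusted p = 1.9e-04). Fap, a protease of activated fibroblasts, was at 9.13, 9.30, 9.12 and 8.78 in T11-Apobec tumours, against 11.45, 10.86, 11.38 and 10.76 in T11 tumours. It fell by 2.03 ± 0.32 relative to T11 (adjusted p = 2.6e-06). Pdgfra and Pdgfrb, the platelet-derived growth factor receptors of fibroblasts and pericytes, had differences of -0.39 and -0.20 and were not called. Markers of surrounding tissue varied between tumours at the same time: the summed signal of 13 skeletal muscle genes was 2389 to 7325 in T11-Apobec and 3836 to 71172 in T11, and that of 10 adipocyte genes was 1462 to 2735 in T11-Apobec and 2013 to 11461 in T11. Their part in the stromal differences was not tested.

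Genes of the unfolded protein and integrated stress response were lower, 9 of 15 with none higher and a median difference of -0.73. Herpud1, which helps remove misfolded proteins from the endoplasmic reticulum, was at 11.56, 11.94, 11.77 and 11.61 in T11-Apobec tumours, against 13.17, 13.14, 13.29 and 13.18 in T11 tumours. Its difference of -1.47 ± 0.17 (adjusted p = 1.7e-09) exceeded by far the spread within either group. The transcription factor Xbp1 and the chaperone Hspa5 had differences of -0.73 (adjusted p = 5.8e-06) and -0.71 (adjusted p = 0.00471). The count was 4 to 7 when 1 library was left out. Rcn3, a calcium-binding chaperone of collagen-producing cells, was at 9.83, 10.06, 10.16 and 9.97 in T11-Apobec tumours, against 12.95, 12.61, 12.93 and 12.87 in T11 tumours. The smallest adjusted p of the genes named here belonged to it, 3.2e-18, with a difference of -2.84 ± 0.18.

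Epithelial, Notch and growth factor genes gave fewer calls. Of 14 luminal genes 4 were lower, Krt18, Gata3, Muc1 and Cd24a, and of 13 Notch genes 4 were lower, among them the targets Hey1 (-2.15, adjusted p = 1.1e-04) and Hey2 (-2.03, adjusted p = 8.9e-04). Erbb2, the receptor tyrosine kinase HER2, had a difference of -1.21 ± 0.22 (adjusted p = 3.5e-05). Among p53 targets 5 of 15 were lower, with Gdf15, a stress cytokine, at a difference of -3.02 ± 0.58 (adjusted p = 1.1e-04), while Trp53 itself had one of 0.12 (adjusted p = 0.736). The p53 target count was 3 to 4 when 1 library was left out. None of 20 mitosis genes passed in either direction, and of 21 DNA replication genes 1 was higher, Pcna, the sliding clamp of replication, with a difference of 0.41 (adjusted p = 0.021). Mki67, a marker of cycling cells, was at 13.51, 13.39, 13.31 and 13.36 in T11-Apobec tumours, against 13.27, 12.81, 13.28 and 13.46 in T11 tumours. Oxidative phosphorylation, ribosomal protein and hypoxia genes likewise gave none in 15, 15 and 18 tested members.

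Myc and its neighbour Pvt1 were both higher. Myc, the growth-promoting transcription factor at chr15:61985391-61990374, was at 13.76, 13.78, 13.67 and 13.96 in T11-Apobec tumours, against 12.68, 12.57, 12.48 and 12.37 in T11 tumours. Its difference was 1.27 ± 0.20 (adjusted p = 2.5e-06), and in other tumours it was 1.17 at day 3 and 1.00 at end stage (adjusted p of 2.4e-05 and 2.0e-04). Pvt1, a long non-coding RNA at chr15:62037986-62378096, was at 11.82, 11.73, 11.47 and 12.04 in T11-Apobec tumours, against 9.34, 9.33, 9.18 and 8.92 in T11 tumours. The Pvt1 difference of 2.57 ± 0.34 (adjusted p = 5.8e-08) was not seen at the other times, where it was 0.67 at day 3 and 0.00 at end stage (adjusted p of 0.165 and 1). Pvt1 was lower in day 7 T11 tumours, with a mean of 9.19, than in T11 tumours of day 3 and end stage, with means of 10.56 and 11.19. Of 9 tested genes in a window of 2 megabases on each side of Myc, H2afy3, which lies inside Pvt1 and cannot be told apart from it without strand, was the only further one called. Chromosome 15 as a whole ran the other way, with a median difference of -0.21 over 661 genes.

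The day 7 pattern was set beside untreated tumours of day 3 (4 against 4) and end stage (4 against 5), which share no tumour with it. In those comparisons the 2 models were read on different flow cells, so flow cell and model cannot be told apart there. The file headers mark the day 3 tumours as Pretreatment. At day 3, 3380 genes were called (18.4%), 2271 higher (12.4%) and 1109 lower (6.05%), and under a median-of-ratios rescaling the split was 1742 higher and 1677 lower. At end stage 1458 were called (7.96%), 534 higher (2.91%) and 924 lower (5.04%), which became 841 higher and 724 lower under that rescaling. Of the 894 genes higher at day 7, 614 were also called higher at day 3, which is 68.7% of the day 7 list and 27.0% of the day 3 list. Only 53 were also higher at end stage, 5.93% of the day 7 list and 9.93% of the end-stage list. Of the 1672 lower genes, 655 were lower at day 3 (39.2% and 59.1% of the lists) and 319 at end stage (19.1% and 34.5%).

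At day 3 the counts called higher were 15 of 16 T cell genes, all 14 cytotoxicity genes, 21 of 26 interferon gamma genes, 16 of 17 class I genes and all 12 class II genes. At end stage they were 0, 1, 1 and 3 in the first 4 of these lists, while 7 class II genes were called higher. Other lists had more higher calls at day 3 than at day 7, with 8 and 3 of 13 macrophage genes, 10 and 5 of 14 complement genes and 10 and 6 of 13 CD4 helper and regulatory genes. Over all genes, 12.4% were called higher at day 3 and 4.88% at day 7. The limma contrast of day 7 with day 3 called 0 of these macrophage genes, 0 complement genes and 1 CD4 gene. A difference between the times is thus not shown for most of them. The median of the interferon gamma list was 2.16 at day 3, 2.92 at day 7 and 0.74 at end stage. Its day 7 difference was larger than that at end stage for 10 of its 26 genes, by a test of the difference itself, for which 4.81% of all genes were called, 1.97% in the positive direction and 2.84% in the negative. The same test called 2 of 14 cytotoxicity genes, 2 of 17 class I genes, 0 of 16 T cell genes and 0 of 12 class II genes in the positive direction, so a difference between the times is not shown for most members of these lists. Between day 7 and day 3 it called no gene of these 5 lists. In the limma contrast of day 7 with end stage, Cd8a was among the called genes, at 3.73 (adjusted p = 0.0426). The stress response list had 9 calls at day 7 and none at either other time, and the contrast with end stage was called for 4 of its 15 members and that with day 3 for 1.

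The day 7 difference differed from that at day 3 for 97 genes (0.529%), 6 of them in the positive direction (0.0327%) and 91 in the negative (0.497%). Under the median-of-ratios rescaling 33 genes were called, 12 positive and 21 negative, and the median of all genes moved to -0.02 from -0.13. Rcn3 led these genes, with differences of -2.84 at day 7 and -0.98 at day 3, which are 1.86 apart (adjusted p = 2.7e-05). Papss2, a sulfate-donor synthase, had differences of -1.97 and -0.14 (adjusted p of the contrast = 1.9e-04). Gata3 and Herpud1 were also among them, with contrasts of -2.22 and -1.09 (adjusted p of 0.00924 and 0.0166). The calls of Pvt1, Tmem47 and Tmem178b in this contrast were lost when 14, 14 and 12 of the 16 libraries were left out in turn, and those of Pvt1 and Ssbp4 were lost under the rescaling.

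**Figure D3:**
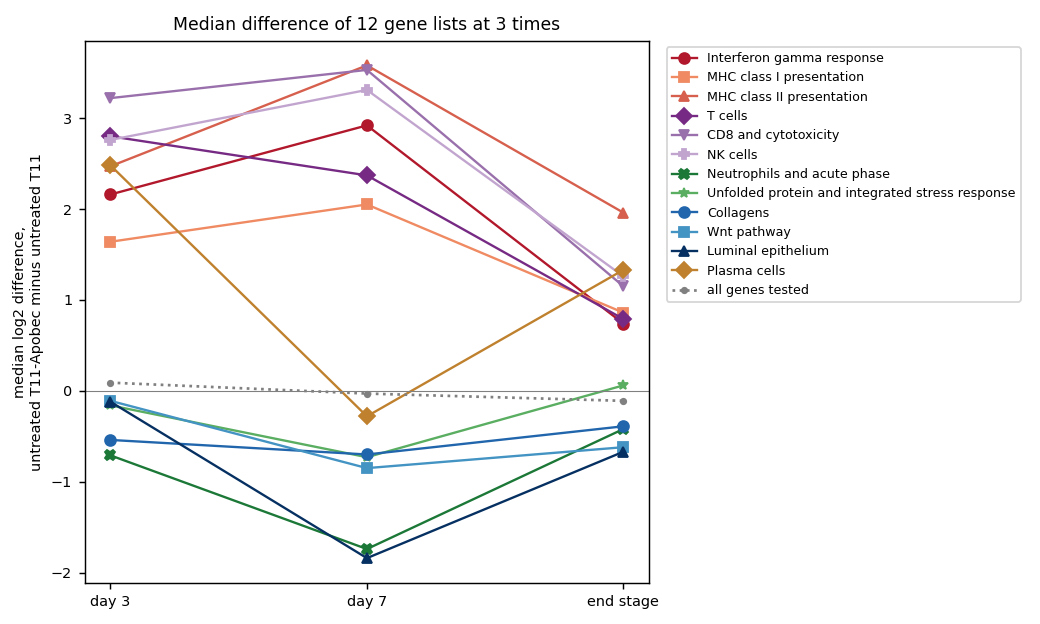
Lines join the median log2 difference (untreated T11-Apobec minus untreated T11) of 12 gene lists at day 3, day 7 and end stage, with the median of all genes tested as a dotted line. The interferon gamma median was 2.16, 2.92 and 0.74, and the neutrophil list had its lowest median at day 7, -1.74.

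Across the 18 groups of T11, T11-Apobec and T11-UV tumours, the untreated T11-Apobec tumours of day 7 were not at the top for T cell genes. Cd8a averaged 10.89 ± 0.53 in T11-Apobec tumours at day 7 under anti-PD1 and anti-CTLA4, 8.58 ± 0.51 in the untreated ones and 6.29 ± 1.12 in untreated T11-UV tumours (SD, n = 4 each). Untreated T11 tumours at day 7 had the lowest Cd8a mean of the 18 groups, 3.99 ± 1.16, and treated T11 tumours averaged 4.46 ± 0.60. Cxcl9 gave the same picture at the low end, with 8.19 ± 0.53 in untreated T11 tumours at day 7. Against untreated T11-UV at day 7, T11-Apobec was higher for Cd8a by 2.30 (adjusted p = 0.0217) and for Ciita by 4.24 (adjusted p = 8.2e-06), while B2m differed by -0.07 (adjusted p = 0.84). In that comparison 42.8% of all genes were called, 21.1% higher and 21.8% lower, and flow cell and model cannot be told apart. Only 2 of 16 T cell genes and 2 of 17 class I genes were called higher there, shares below that of all genes. Higher calls were 6 of 14 for cytotoxicity, 12 of 26 for the interferon gamma response and 8 of 12 for class II. None in these 5 lists was called lower.

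The cultured lines grew without host cells and have 1 library each, so no test was made. The name T11_V5_CELL_LINE shares the element T11_V5 with the source labels of the T11-UV tumours, so whether it is T11 or T11-UV is not certain, and T-11-CellLine-VALIDATION is the other. Levels in these libraries were scaled apart from the tumours and are compared only with each other. Cd8a and Ifng were listed at 0 in all 3 cultured libraries. The genes lower in T11-Apobec tumours were not lower in the cultured derivative: their median difference was 0.46 against T11_V5_CELL_LINE and 0.54 against T-11-CellLine-VALIDATION, where all tested genes had medians of 0.27 and 0.18. By more than 1 log2 unit, 5.38% and 7.78% of them were lower in culture, against 5.56% and 9.85% of all genes. Sfrp2 was at 8.74 in T11_EF1A_APOBEC_CELL_LINE, against 2.46 in T11_V5_CELL_LINE and 3.12 in T-11-CellLine-VALIDATION, the opposite order to the tumours. Ltbp2 was likewise higher in T11_EF1A_APOBEC_CELL_LINE, at 9.98, against 4.44 and 3.75. Tbx4 was at 8.06 in T11_EF1A_APOBEC_CELL_LINE, against 8.14 and 6.86, so the low level of T11-Apobec tumours was not present in the cultured library. Myc was lower in T11_EF1A_APOBEC_CELL_LINE, at 12.22, against 13.70 and 13.68.

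**Figure D4:**
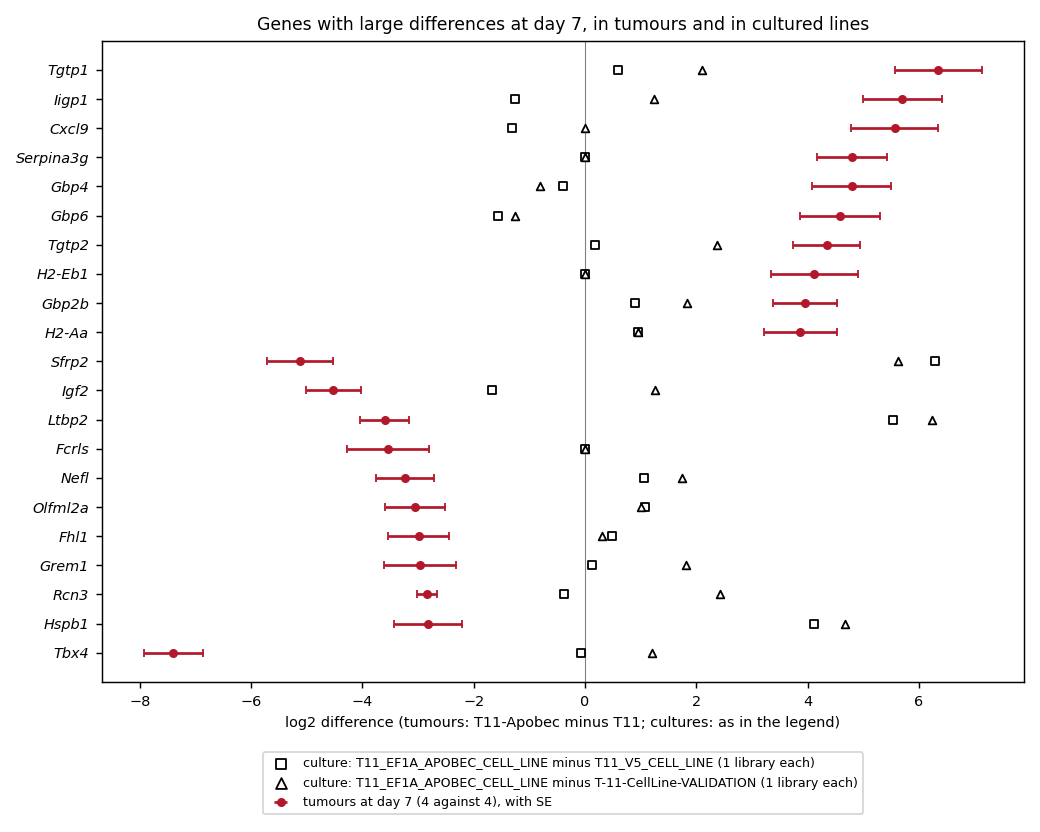
The log2 differences of 21 genes are shown for tumours at day 7 (T11-Apobec minus T11, filled circles with SE, 4 against 4) and for cultured lines with 1 library each (T11_EF1A_APOBEC_CELL_LINE minus T11_V5_CELL_LINE, squares, and minus T-11-CellLine-VALIDATION, triangles). Interferon-inducible genes are far to the right in tumours and near 0 or scattered in culture, and Sfrp2 and Ltbp2 lie on opposite sides in tumours and in culture.

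Differences at day 7 were also uneven along the genome. Of 18326 tested genes 18016 were placed on GRCm38 with GENCODE vM21. Chromosome 8 held 265 lower and 10 higher genes of 905, so 29.3% were lower, against 9.13% of all placed genes, and its median difference was -0.39. The shift covered the whole chromosome: each of its 9 runs of 100 neighbouring genes had a median between -0.47 and -0.35. Genes called lower there differed by a median of -0.64, and the other 1407 lower genes, placed elsewhere or not placed, by -1.14. Nlrc5 lies on chromosome 8 and was higher nonetheless.

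The 12 lowest of the 172 runs were the 9 of chromosome 8 and 3 of the 6 of chromosome 14, whose median difference was -0.32. Chromosome 13 had the highest median, 0.17. In each library the deviation of a gene was taken from the mean of the 18 T11-lineage group means, less the library's median deviation over all tested genes. For chromosome 8 genes the median deviation was -0.23 to -0.20 in T11-Apobec and 0.13 to 0.17 in T11. These ranges did not overlap, as was so for 16 of the 20 chromosomes in these 8 libraries. The chromosome 8 median was -0.12 at day 3, where all placed genes had 0.09, and -0.12 at end stage, where all placed genes had -0.11, so at end stage it did not stand apart from the rest of the genome. Untreated T11 tumours of end stage deviated by -0.20 to -0.04, nearer to T11-Apobec than to T11 of day 7. The chromosome 14 median was -0.18 at day 3 and -0.43 at end stage. In culture the chromosome 8 median was 0.20 against T11_V5_CELL_LINE and 0.23 against T-11-CellLine-VALIDATION, beside 0.27 and 0.18 over all genes. DNA copy number was not analysed here, and its part in these shifts was not tested.

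**Figure D5:**
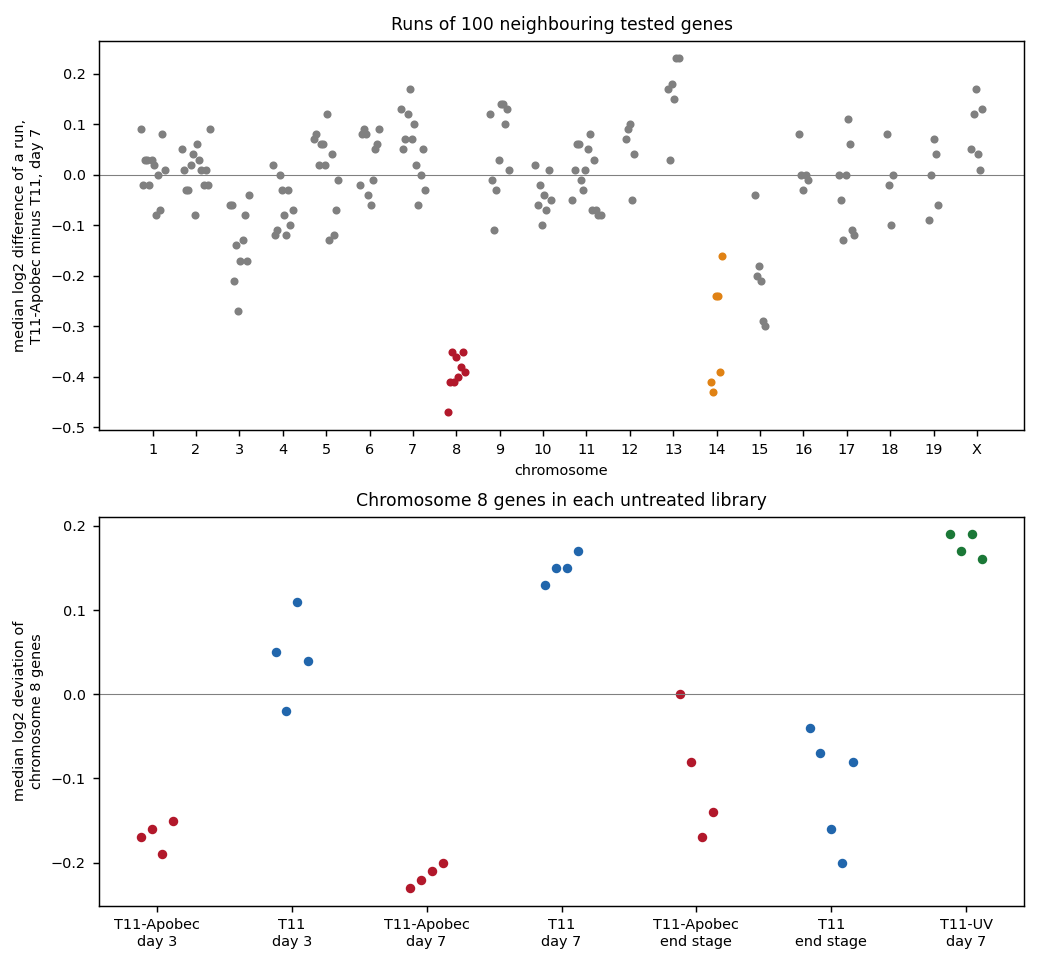
The upper panel plots the median log2 difference at day 7 (T11-Apobec minus T11) of each run of 100 neighbouring tested genes by chromosome, with chromosome 8 in red and chromosome 14 in orange. The lower panel plots, for each untreated library, the median deviation of chromosome 8 genes, less that library's median deviation over all tested genes. It is -0.23 to -0.20 in T11-Apobec and 0.13 to 0.17 in T11 at day 7.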

How the data were processed

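RNA was extracted from tumours, and TruSeq mRNA libraries were read from both ends for 50 bases, per the labels' protocols. The tools Salmon, STAR, Picard and SAMtools and the build mm10 are named in the list of steps, per the submitters' processing notes, with no annotation stated. The deposited tumour table holds signal per gene, in which the authors' normalization leaves an upper quartile of 2048.974 per library over genes above 0, against 1000 for the cultured lines. Only 69.6 to 70.8% of a day 7 library's values were whole reads within a tolerance of 0.01 reads, so no count test was used and depth is an estimate from the steps between low values. Of 45724 gene entries, 39 with date names and 28 of 14 repeated symbols were left out, and 3 columns that could not be mapped to a sample were not used.

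A pseudocount of 1 was added before taking log2. Genes that exceeded 0 in 4 or more fitted libraries and were in the upper 66.7% by mean were tested with limma 3.58.1 (R 4.3.3). The fit used moderation with a variance trend, 1 mean per group, and the spread of all 74 T11-lineage libraries in 18 groups (56 residual degrees of freedom). P-values were two-sided, adjusted by Benjamini-Hochberg over all genes. They measure the spread between these tumours. Genes were named as the 10 largest called differences per direction among genes above the median level with groups that do not overlap. Predicted genes, clone names and antigen receptor segments were not considered there, so a larger called difference can be left unnamed. The largest positive difference called was 7.31, against 6.35 for Tgtp1, the largest one named. Also named were a panel of 20 genes and up to 4 genes per direction that differed from day 3. Each of 60 lists added the 2 genes called at the lowest adjusted p. Other list members were picked as examples after their values were seen. The members and the lists were chosen with earlier results of these data known. Promoters came from RefSeq. Alternatives were other sources of the spread, pseudocounts, filters, scaling, no trend, array weights, a flow cell term, and leaving out each library in turn. The mitochondrially encoded genes were not analysed here, and results for some of the named genes are not reported here.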

Additional observations from a re-analysis of the deposited data

Results flagged for a closer look

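In 13 of the 234 groups of 4 formed by 117 of the named genes and the 2 models, 1 library stood apart from the other 3, where chance alone flags about 1 group in 20. In T11-Apobec tumours the library apart was the lowest for Grem1 (8.95, the others 9.94 to 10.11), Mmp2 (12.55) and Mmp14 (14.10). It was the highest for Gdf15 (5.16), Ltbr (11.84), Fcgr4 (12.53), Myf5 (10.46) and Cd4 (8.38). In T11 tumours it was the lowest for Gata2 (10.11) and Tap1 (9.85), and the highest for Ciita (7.60), Foxc2 (9.91) and Ufsp2 (11.34). In each of these genes but Cd4 the 2 models were called different, and in all 13 the groups did not overlap. Among all called genes the groups did not overlap in 884 of 894 higher and 1625 of 1672 lower ones, so this trait is not particular to these 13.

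For 9 named genes the day 7 difference was unlike that at day 3, by a test of the contrast between them in limma. The contrast was -1.86 for Rcn3, -2.22 for Gata3, -1.09 for Herpud1, -1.83 for Papss2, -0.69 for Ufsp2 and -0.76 for Ssbp4. It was 3.14 for Tmem178b, 1.05 for Tmem47 and 1.90 for Pvt1. Under a median-of-ratios rescaling the calls of Pvt1 and Ssbp4 were lost.

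For 40 named genes the day 7 difference was unlike that at end stage. Among interferon-inducible and presentation genes the contrast was 4.07 for Tgtp1, 3.99 for Iigp1, 3.42 for Gbp4, 3.26 for Gbp6, 2.81 for Tgtp2, 2.17 for Tap1 and 1.08 for Erap1. Among immune cell genes it was 3.73 for Cd8a, 3.64 for Prf1, 2.86 for Serpina3g, 2.71 for Klrd1, 3.44 for Ccl8 and 1.19 for C3ar1. Other positive contrasts were 1.31 for Samhd1, 1.11 for Apobec1, 2.57 for Pvt1, 2.50 for Tmem178b and 1.16 for Tmem47. The negative contrasts were -2.60 for Igf2, -2.14 for Wnt5a, -2.39 for Rcn3, -2.76 for Hspb1, -1.88 for Herpud1, -0.75 for Xbp1 and -0.75 for Ufsp2. In stromal and vascular genes they were -1.99 for Acta2, -1.01 for Eng, -1.42 for Emcn, -1.17 for Mmp2, -1.70 for Mmp9 and -2.26 for Foxc2. They were -1.76 for Gata3, -1.17 for Gata2, -1.75 for Sox13, -2.01 for Hey2, -3.62 for Sprr1a, -1.11 for Ier2, -0.57 for Ltbr, -1.34 for Papss2 and -1.05 for Ssbp4. Over all genes, 105 of the 521 negative calls of this contrast lay on chromosome 8, which held 905 of the 18016 placed genes. Herpud1, Mmp2, Foxc2 and Ier2 are among the genes that lie there. The part of that chromosome's shift in their contrasts was not tested. Day 7 was read on 1 flow cell and end stage on others, so time and flow cell cannot be told apart in these contrasts.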

How the results depend on the processing

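No named gene changed sign at day 7 in the alternatives that gave it a value; of 120, the spread of the 8 libraries alone gave values for 109 and the stricter filter on low values for 70. The count of 2566 genes was 881 with the spread of all sensitive and resistant models, 6267 with the spread of the 8 libraries alone, 1225 under the stricter filter and 8387 with array weights, and of the 881 genes 864 were among the 2566. With those 4 settings day 3 gave 1113, 6672, 1795 and 8913 genes. End stage gave 234 with the spread of all models, 3536 with its own groups and 4640 with array weights. The contrast of day 7 with day 3 gave 0 with the spread of all models (2167 genes at an unadjusted p under 0.05 in the reported fit), 3552 with its own groups, 61 with no filter, 48 under the stricter filter, 33 after rescaling and 5587 with weights. That with end stage gave 17, 4755 with its own groups and 5856 with weights. The comparison with T11-UV gave 4936 with the spread of all models and 4942 under the stricter filter. In runs of 50 genes the chromosome 8 median was -0.37. The causes were not tested, apart from the smaller number of genes under the stricter filter.

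With each library left out in turn, day 7 gave 1880 to 2161 genes, day 3 2555 to 3006 and end stage 740 to 1325. The contrast with day 3 gave 36 to 122, that with end stage 525 to 892, and T11-UV 5495 to 8289. The chromosome 8 median less that of all genes, an alternative chosen after seeing the data, stayed between -0.37 and -0.35, and that of chromosome 14 between -0.30 and -0.27. Of the 120 named genes 23 lost the call without some library and 42 with the spread of all models, B2m, Ctla4, Mmp9, Zbp1 and Gata2 among them. The interferon gamma and class I counts stayed at 20 and 15 in every fit without 1 library. With the spread of all models they were 18 and 14, and the stromal and stress counts fell further, to 3 collagen, 2 fibroblast, 1 endothelial, 3 Wnt and 3 stress response genes. With that spread 0 macrophage, 0 type I interferon, 1 neutrophil, 3 checkpoint, 3 CD4, 3 dendritic cell, 3 complement, 3 p53 target, 2 luminal and 2 Notch genes were called in the direction reported. A flow cell term could be fitted for day 7 alone, with 2691 genes. No paired analysis was possible because the labels give T11-Apobec and T11 no shared replicate numbers. Depth is estimated and 4 tumours a group limit small differences.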
